A study of Mus musculus with 4 samples.

Results

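The aldehyde dehydrogenases (ALDH), UDP-glucuronosyltransferases (UGT) and cytosolic sulfotransferases (SULT) were examined in injured mouse kidneys. Members were the protein-coding genes whose symbols begin with Aldh, Ugt1a, Ugt2a, Ugt2b, Ugt3a or Sult and a number, and 6 pseudogenes of matching name were left out. The rule took 63 of the 54078 features of the expression table, 21 in each superfamily. It used names only and no measured value.

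RNA-sequencing covered 4 libraries of kidney RNA from adult male mice at day 3 after both renal pedicles were clamped for 30 min (I/R). In 2 libraries the mice carried floxed Apela alleles and Cre under the Ksp-cadherin promoter, which is active in renal tubular epithelium (Apela Ksp KO, here KO). In the other 2 they were Cre-negative floxed littermates (WT), so the floxed alleles and the I/R were common to both groups. Each library was a pool of RNA from 3 mice, so n = 2 counts pools, and no uninjured kidney was analysed. The labels name the strain C57BL/6 x 129S4/SvJae and the tissue kidney, while the accompanying design text names adipose tissue. Proximal tubule markers summed to between 1082 and 1752 FPKM per pool (fragments scaled by gene length and a total set for each library). The 5 adipocyte markers summed to at most 0.405, with Ucp1 at 0 in every pool. Apela, the deleted gene, stood at 5.27 and 4.57 FPKM in WT and at 0.536 and 0.245 in KO (log2 fold change -2.62), with an adjusted p of 0.466 by limma, over the threshold of 0.05. Between 16045724 and 16927742 reads per pool fell on genes.

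Aldehyde dehydrogenases oxidize aldehydes from alcohols, lipids, amino acids and retinol to the carboxylic acids. Glucuronosyltransferases attach a sugar from a UDP-sugar, and sulfotransferases a sulfate from the donor PAPS, to drugs, steroids, bilirubin and amines, which makes them easier to excrete. The proximal tubule, which takes up and secretes organic anions, is known for expressing many of these enzymes.

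Of the 63 members, 34 had a mean of at least 0.5 FPKM over the 4 pools and were tested, 17 ALDH, 11 UGT and 6 SULT genes. Aldh1a1 and Aldh1a7 were higher in both KO pools than in both WT pools, by 2.60-fold and 2.54-fold in mean FPKM. Ugt2b37 and Sult1c2 were lower in both KO pools, at 0.365 and 0.643 times the WT mean. The most abundant members, Sult1d1, Ugt2b38, Aldh2, Ugt3a2 and Aldh9a1, had mean ratios of KO to WT from 0.625 (Ugt2b38) to 1.35 (Sult1d1). No member passed the threshold, since the fit across all genes (limma on log2(FPKM + 0.5), Benjamini-Hochberg adjustment over 15414 genes) called 0 genes (0%), and the adjusted p of the tested members ran from 0.650 to 0.987. For a single gene, the smallest two-sided p that exact permutation of 4 pools allows is 0.333. The words higher and lower below therefore describe the pools at hand.

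Without the adjustment, 5 of the 34 tested members (14.7%) had a limma p under 0.05, beside 6.32% of all tested genes (974). With a pool left out, 1 group held a single pool. The number then fell without KO pool 1 and rose without WT pool 1, as did the share over all genes. Aldh1a7, Aldh1a1 and Ugt1a10 were the 3 higher in KO, where the share over all genes was 3.29%. Sult1c2 and Ugt2b37 were the 2 lower in KO, where it was 3.03%. Both KO pools lay above both WT pools in 7 members (20.6%), beside 19.7% of all tested genes, and below them in 6 (17.6%), beside 18.1%. The shares of members without overlap of the pools were thus near those of all genes. The median log2 fold change was 0.07 over the ALDH genes, 0.12 over the UGT genes and 0.25 over the SULT genes, and 0.01 over all tested genes. Without WT pool 2 the 3 medians were -0.17, -0.43 and -0.16.

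**Figure D1:**
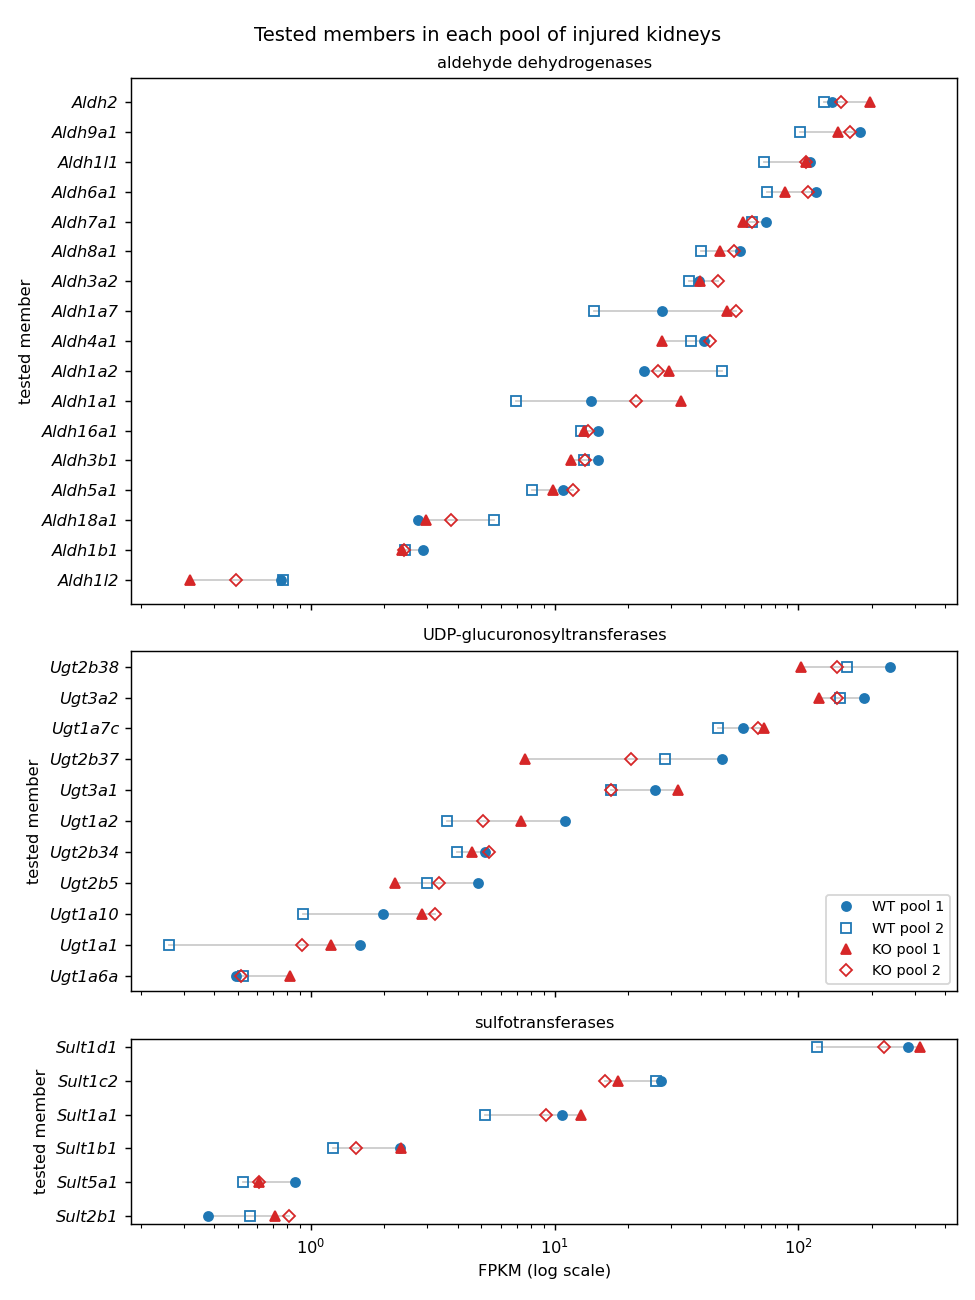
FPKM of the 34 tested members (log axis) in each of the 4 pools, by superfamily and in order of mean FPKM; each symbol is 1 pool and the grey line joins the lowest and highest. Aldh1a1 and Aldh1a7 show both KO pools to the right of both WT pools, Sult1c2 and Ugt2b37 to the left, and WT pool 2 is the leftmost symbol in 19 members.

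The 2 WT pools often held the extreme values. WT pool 2 had the lowest value of the 4 pools in 19 of the 34 tested members (55.9%), beside 30.7% of all tested genes, and WT pool 1 the highest in 16, beside 3188 of the 15414 tested genes. The total that scaled the FPKM of WT pool 2, 1.72e+07, was above its 16045724 reads on genes. In every other pool that total was below the reads on genes. The 5 macrophage markers summed to 217 FPKM in WT pool 2 and to between 81.2 and 133 in the others, and the 4 fibroblast markers to 182 and between 90.6 and 122. Its summed proximal tubule markers, 1317 FPKM, lay between KO pool 1 (1082) and KO pool 2 (1595), while 5 of the 10 single markers were lowest in it. The 3 collecting duct markers were all lowest in WT pool 2 and summed to 199 FPKM there and to between 265 and 351 in the others, and the 3 thick ascending limb markers to 861 and between 982 and 1289. In RNA of whole kidneys, fewer cells of a type and less RNA per cell cannot be told apart. The part of cell composition or of the scaling total in the members' values was not tested. Values without a pool are given where they turn or clearly move a result.

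Aldh1a1 and Aldh1a7 are neighbours on chromosome 19 of GRCm38. Aldh1a1, which oxidizes retinaldehyde to retinoic acid, spans 20492715 to 20643462 on the plus strand. Aldh1a7, its rodent paralogue, spans 20692953 to 20727562 on the minus strand, 49.5 kb away. RefSeq start sites of the pair share an upstream stretch, shown here because both genes were higher in KO. Promoters of 8 pairs of members shared a run of at least 30 bases, among them Sult2a4 and Sult2a5, which had no read. Whether the stretch bears on the difference, and which Aldh1a1 start was in use, was not tested. The 300 bases from 250 before to 50 after the start site (RefSeq lists such promoters for 51 of the 63 members) are printed 5′ to 3′ on the gene's strand (RefSeq, GRCm38.p6), for Aldh1a1 at chr19:20601718-20602017, the downstream of the 2 promoters listed, and for Aldh1a7 at chr19:20727507-20727806. Capitals mark their longest identical run, 65 bases from -94 to -30 relative to the start in both.
Aldh1a1: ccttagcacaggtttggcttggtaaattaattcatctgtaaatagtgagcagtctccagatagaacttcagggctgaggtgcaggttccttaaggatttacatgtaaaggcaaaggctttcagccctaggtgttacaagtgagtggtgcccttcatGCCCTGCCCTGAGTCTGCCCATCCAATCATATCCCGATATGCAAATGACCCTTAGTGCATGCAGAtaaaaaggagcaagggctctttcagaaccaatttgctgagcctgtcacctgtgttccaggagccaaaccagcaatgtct
Aldh1a7: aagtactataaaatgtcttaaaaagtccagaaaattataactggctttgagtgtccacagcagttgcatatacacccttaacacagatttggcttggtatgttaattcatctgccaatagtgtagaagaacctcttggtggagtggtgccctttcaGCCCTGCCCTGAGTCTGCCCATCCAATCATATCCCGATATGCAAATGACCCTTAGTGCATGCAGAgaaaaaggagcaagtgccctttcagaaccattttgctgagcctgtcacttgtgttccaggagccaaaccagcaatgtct
Over 309 aligned columns, 72.8% were identical. In the transcripts, which bear on counting, 1 of 1967 windows of 100 bases of Aldh1a7 also occurred in Aldh1a1. This measure is not comparable with the identity of the promoters.

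Aldh1a1 had 14.0 and 6.94 FPKM in WT and 33.1 and 21.5 in KO. The lower KO pool was above the higher WT pool. Its log2 fold change was 1.39 (SE 0.39, 95% interval 0.36 to 2.41, limma adjusted p = 0.764), from 10.5 ± 5.01 in WT to 27.3 ± 8.16 FPKM in KO (SD, n = 2). Aldh1a7 had 27.4 and 14.4 FPKM in WT and 51.2 and 55.4 in KO. Both KO pools were again above both WT pools, with a log2 fold change of 1.40 (SE 0.32, interval 0.56 to 2.23, limma adjusted p = 0.708). The WT means rest on unequal pools, and without WT pool 2 the log2 fold changes were 0.90 for Aldh1a1 and 0.94 for Aldh1a7. Anxa1, the only other tested gene within 500 kb of either, had a log2 fold change of 0.10.

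The other retinaldehyde dehydrogenases did not share this pattern. Aldh1a2, which makes retinoic acid mainly in mesenchymal cells, had 23.2 and 48.7 FPKM in WT and 29.6 and 26.6 in KO. WT pool 2, where macrophage and fibroblast markers were highest, held the highest value, and the log2 fold change turned from -0.26 to 0.27 without it. Aldh1a3, the remaining retinaldehyde dehydrogenase, was under the filter with 0.229 to 0.504 FPKM, which is 17 to 40 reads.

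Genes around retinoic acid were taken as a list of 21, of which 13 were tested. None had an unadjusted limma p under 0.05, beside 6.32% of all tested genes. Without overlap of the pools, 1 (7.69%) was higher in KO, beside 19.7%, and 1 lower, beside 18.1%, and the median log2 fold change was 0.01. Dhrs3, which reduces retinaldehyde back to retinol, had 48.0 and 37.4 FPKM in WT and 38.8 and 47.0 in KO. Rxra, the retinoid X receptor alpha, had 31.4, 30.3, 34.0 and 29.4 FPKM in WT pools 1 and 2 and KO pools 1 and 2. In both genes the groups overlapped. Among the 6 alcohol dehydrogenases, which act one step before the ALDH enzymes, 3 were tested and 2 of them (66.7%) lower in KO without overlap, beside 18.1% of all tested genes. Adh1, the most abundant, was lower in both KO pools, with 158 and 147 FPKM in WT and 130 and 122 in KO (log2 fold change -0.28, SE 0.14, limma adjusted p = 0.797). Adh5, which oxidizes glutathione-bound formaldehyde, had 32.5 and 25.0 FPKM in WT and 32.2 and 34.8 in KO.

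The mitochondrial acetaldehyde dehydrogenase Aldh2 was the most abundant ALDH gene, with 18.6% of the summed mean FPKM of the superfamily. It had 137 and 128 FPKM in WT and 196 and 150 in KO, without overlap (log2 fold change 0.37, SE 0.19, limma adjusted p = 0.797). The interval from -0.13 to 0.87 includes no difference, and the value was 0.17 without KO pool 1 and 0.57 without KO pool 2. Its relative Aldh1b1 had 2.37 to 2.87 FPKM and a log2 fold change of -0.12. Aldh3a2, which oxidizes fatty aldehydes, had 39.0 and 35.7 FPKM in WT and 39.6 and 46.6 in KO, the KO pools lying just above (log2 fold change 0.20, SE 0.14, limma adjusted p = 0.824), at 0.084 without KO pool 2 and 0.32 without KO pool 1. Aldh3b1, which acts on lipid aldehydes, had 15.0 and 13.2 FPKM in WT and 11.7 and 13.3 in KO, with overlap.

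Most other abundant ALDH genes serve amino acid, carnitine or folate metabolism, and the pools overlapped in each of the 8 described next. Aldh9a1, an enzyme of carnitine synthesis, had 179 and 102 FPKM in WT and 146 and 162 in KO. Aldh6a1, which acts in valine breakdown, had 118 and 74.3 FPKM in WT and 88.2 and 109 in KO. Aldh8a1, an enzyme of tryptophan breakdown, had 57.4 and 39.8 FPKM in WT and 47.8 and 54.5 in KO. In each of the 3 WT pool 1 was the highest and WT pool 2 the lowest. Their log2 fold changes of 0.19, 0.07 and 0.09 became -0.22, -0.27 and -0.17 without WT pool 2. Aldh1l1, the cytosolic formyltetrahydrofolate dehydrogenase, had 112 and 71.9 FPKM in WT and 108 in both KO pools. Here too WT pool 2 was the lowest, and the log2 fold change of 0.26 became -0.05 without it. Exons of Bbof1 cover 18.6% of Aldh6a1, so reads of the 2 genes could not be told apart there without strand.

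Aldh7a1, which acts in lysine breakdown, had 73.8 and 64.3 FPKM in WT and 59.3 and 64.7 in KO. Aldh4a1, the last enzyme of proline breakdown, had 40.9 and 36.2 FPKM in WT and 27.7 and 43.3 in KO, and 32.5% of its exon bases overlap the annotated gene Gm21969. Aldh5a1, which oxidizes succinic semialdehyde, had 10.8 and 8.04 FPKM in WT and 9.80 and 11.9 in KO. All 3 overlapped between groups, with log2 fold changes from -0.15 to 0.20, and that of Aldh5a1 was 0.0021 without WT pool 2. The value of Aldh4a1 turned from -0.15 to 0.17 without KO pool 1 and was -0.47 without KO pool 2, and that of Aldh7a1 moved from -0.15 to -0.054 without WT pool 1 and to -0.25 without WT pool 2. Aldh16a1, held to be without catalytic activity in mammals, had 15.1 and 12.8 FPKM in WT and 13.2 and 13.6 in KO. Its log2 fold change of -0.05 had an interval from -0.39 to 0.28.

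The lower ALDH genes were Aldh18a1, which makes the precursor of proline, with 2.75 to 5.62 FPKM and its highest value in WT pool 2, and Aldh1l2. Aldh1l2, the mitochondrial counterpart of Aldh1l1, had 0.755 and 0.767 FPKM in WT and 0.319 and 0.492 in KO, without overlap. That was 91 and 99 reads in WT and 40 and 60 in KO, with a log2 fold change of -0.48 (SE 0.25, limma adjusted p = 0.797). Aldh3a1, Aldh3b2 and Aldh3b3 were under the filter, at 0.0814 to 0.551 FPKM. Aldh3b3 had 37 and 34 reads in WT and 13 and 15 in KO.

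**Figure D2:**
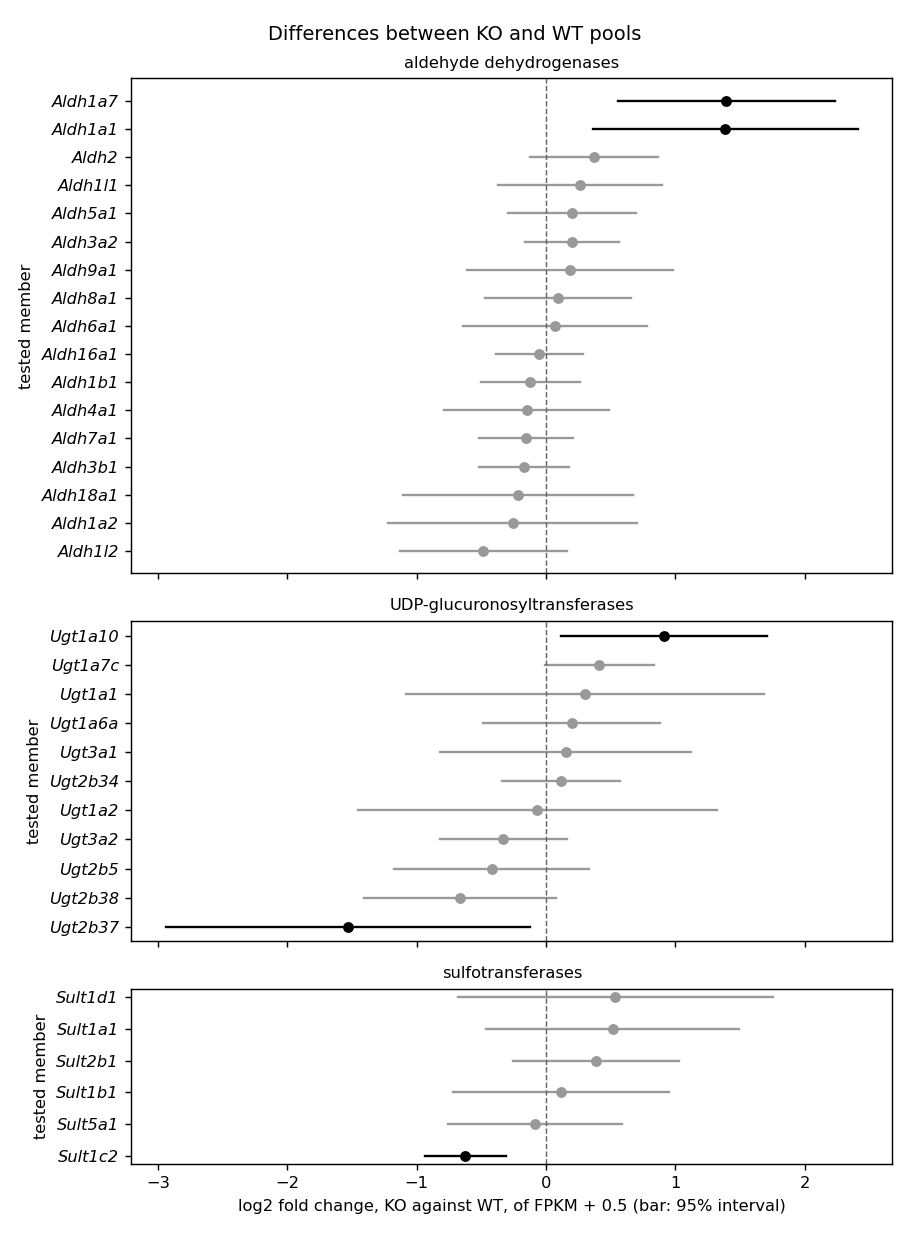
Log2 fold change of KO against WT of FPKM + 0.5 with its 95% interval for the 34 tested members, by superfamily; black marks the 5 members with an unadjusted limma p under 0.05 and grey the rest. The intervals of Aldh1a7, Aldh1a1 and Ugt1a10 lie above 0 and those of Ugt2b37 and Sult1c2 below, before adjustment over all genes.

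Among the UGT genes, Ugt2b37 and Ugt2b38 were lower and Ugt1a7c and Ugt1a10 higher in both KO pools. The 7 Ugt2b genes summed to 296 and 194 FPKM in WT and to 117 and 174 in KO. The 9 Ugt1a genes summed to 74.8 and 52.4 FPKM in WT and to 84.9 and 78.9 in KO. The 2 Ugt3a genes summed to 211 and 166 FPKM in WT and to 153 and 161 in KO. Of these sums the UGT1A sum was higher and the other 2 lower in both KO pools, and none of the sums was tested. Ugt2b38 and Ugt2b37 made up most of the UGT2B sum, while the other 2 tested Ugt2b genes overlapped between groups.

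UGT2B enzymes glucuronidate steroids, bile acids and fatty acids. Their genes lie in a cluster of 13 members on chromosome 5 from 86889767 to 87591594, which holds the UGT2 genes, Sult1b1, Sult1d1 and Sult1e1, and 6 of these were tested. Ugt2b37 (87240493 to 87254804) and Ugt2b38 (87409942 to 87424203) are both on its minus strand, 155 kb apart. Their promoters are shown because they are nearly alike while the levels of the genes differed. The windows are as above, chr5:87254739-87255038 for Ugt2b37 and chr5:87424154-87424453 for Ugt2b38, and capitals mark the longest identical run, 82 bases from -105 to -24 in Ugt2b37 and from -91 to -10 in Ugt2b38.
Ugt2b37: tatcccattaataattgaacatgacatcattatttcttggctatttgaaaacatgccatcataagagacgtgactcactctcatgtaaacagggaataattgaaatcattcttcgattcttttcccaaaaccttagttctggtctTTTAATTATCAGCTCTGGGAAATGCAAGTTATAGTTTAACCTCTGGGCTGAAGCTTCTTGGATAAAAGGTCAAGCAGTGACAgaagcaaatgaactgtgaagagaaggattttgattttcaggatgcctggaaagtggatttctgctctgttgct
Ugt2b38: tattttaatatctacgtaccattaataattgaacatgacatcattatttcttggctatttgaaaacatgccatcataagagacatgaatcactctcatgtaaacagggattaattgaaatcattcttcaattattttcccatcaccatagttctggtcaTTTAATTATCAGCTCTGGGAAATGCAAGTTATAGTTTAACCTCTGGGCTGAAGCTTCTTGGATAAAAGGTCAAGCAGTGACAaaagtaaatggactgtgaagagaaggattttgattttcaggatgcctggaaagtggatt
Over 286 aligned columns 94.8% were identical, and the Ugt2b5 promoter was 86.1% and 87.3% identical to these. In the transcripts, 1.06% of the windows of 100 bases of Ugt2b37 occurred in Ugt2b38, while 24.7% of those of Ugt2b5 did. How reads in these windows were assigned is not given in the sources used here. Ugt2b5 had 69 to 145 reads per pool beside 3256 to 7200 of Ugt2b38. Misplaced reads could therefore weigh far more in the count of Ugt2b5 than in that of Ugt2b38.

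Ugt2b37 had 48.8 and 28.3 FPKM in WT and 7.54 and 20.6 in KO. Both KO pools were below both WT pools, and KO pool 1 was the lowest. The log2 fold change was -1.53 (SE 0.53, interval -2.94 to -0.13, limma adjusted p = 0.785). It was -0.84 without KO pool 1, -1.92 without WT pool 2 and -2.23 without KO pool 2. Its 5 tested neighbours outside the superfamilies within 500 kb had log2 fold changes from -0.70 to -0.04, 1 of them with an unadjusted limma p under 0.05. Ugt2b38, the most abundant UGT gene with 36.5% of the summed mean FPKM, had 237 and 159 FPKM in WT and 103 and 145 in KO. The order of the pools was that of Ugt2b37, without overlap (log2 fold change -0.67, SE 0.28, interval -1.41 to 0.07, limma adjusted p = 0.788), and the value was -0.38 without WT pool 1.

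The proximal tubule transporter Slc34a1, a marker of that segment, had the same order of pools, with 898 and 689 FPKM in WT and 365 and 609 in KO. Of the 10 proximal tubule markers, 4 (40%) were lower in KO without overlap, beside 18.1% of all tested genes, and 2 (20%) higher, beside 19.7%, and the median log2 fold change was -0.22. Slc5a2 and Lrp2 were also lower and had an unadjusted limma p under 0.05, with log2 fold changes of -0.65 and -0.38. These 2 were 20% of the markers, beside 3.03% of all tested genes lower at such a p. Slc22a6 went the other way, with 233 and 141 FPKM in WT and 236 and 383 in KO, as did Slc13a3 (log2 fold changes 0.73 and 0.45). Of the 4 tubular injury markers, Lcn2 and Krt20 were higher (1.21 and 0.73) and Vcam1 lower (-1.91) at an unadjusted limma p under 0.05. These were 3 of 4 (75%), beside 6.32% of all tested genes, and Havcr1 had -0.83 with overlap. Of the 4 fibroblast markers, 1 (25%) had such a p, beside 6.32%, namely Dcn (-0.78). Col1a1 and Col1a2 had -0.22 and -0.12 and Pdgfrb 0.27, all with overlap. Whether the levels of Ugt2b37 and Ugt2b38 moved with the proximal tubule's share of the RNA was not tested. Ugt2b5 had 4.86 and 3.00 FPKM in WT and 2.22 and 3.35 in KO, with overlap (log2 fold change -0.42, SE 0.29, limma adjusted p = 0.824). Its level may hold reads of Ugt2b38. Ugt2b34 had 3.98 to 5.40 FPKM and a log2 fold change of 0.12. Ugt2a3 was under the filter, with 11 and 22 reads in WT and 4 and 10 in KO, and Ugt2b35 had at most 3 reads in every pool. Ugt2b1, Ugt2b36, Ugt2a1 and Ugt2a2 had no read.

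UGT3A enzymes use UDP-sugars other than UDP-glucuronic acid. Ugt3a2 (chromosome 15, 9335550 to 9370955) had 185 and 149 FPKM in WT and 121 and 144 in KO. The KO pools lay below the WT pools, by a log2 fold change of -0.33 (SE 0.19, interval -0.82 to 0.16, limma adjusted p = 0.798), and by -0.17 without WT pool 1 and -0.21 without KO pool 1. Ugt3a1, 20.5 kb from it, had 25.9 and 17.0 FPKM in WT and 32.1 and 17.0 in KO. Its pools overlapped, and its log2 fold change of 0.15 (SE 0.37) was -0.30 without KO pool 1.

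The 9 UGT1A genes on chromosome 1 (88055388 to 88220002) share 1311 bases in 4 exons from 88215044 to 88218997, and each has bases of its own before them. Ugt1a6a has 222 such bases, and 68.6% of the windows of 100 bases of Ugt1a7c occurred in Ugt1a6a. The annotated gene Gm20528 also overlaps exons of all 9. With it counted, Ugt1a10 keeps 809 bases of its own rather than 949, and Ugt1a1 385 rather than 913. Reads in the shared exons cannot name a gene, and how they were assigned is not given in the sources used here. The annotation also gives 998 bases past the shared exons to Ugt1a7c alone, beside 917 bases before them, so its level may hold reads of other first exons. Ugt1a7c had 59.1 and 46.6 FPKM in WT and 72.0 and 68.2 in KO. The groups did not overlap (log2 fold change 0.41, SE 0.16, interval -0.01 to 0.84, limma adjusted p = 0.785), and the value was 0.24 without WT pool 2.

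Ugt1a10 (88055388 to 88219004) was the UGT1A gene with an unadjusted limma p under 0.05. It had 1.98 and 0.923 FPKM in WT and 2.85 and 3.23 in KO, from 72 and 36 reads in WT and 108 and 119 in KO. Its log2 fold change was 0.91 (SE 0.30, interval 0.12 to 1.71, limma adjusted p = 0.785) and 0.51 without WT pool 2. Ugt1a1, which conjugates bilirubin, had 1.59 and 0.261 FPKM in WT and 1.21 and 0.914 in KO. Its pools overlapped, and WT pool 2 rested on 10 reads. Ugt1a2 had 3.60 to 11.0 FPKM and Ugt1a6a, which acts on phenols, 0.491 to 0.818, both with overlap. Ugt1a9 and Ugt1a6b were under the filter with 7 to 22 reads per pool, Ugt1a5 had at most 3 reads and Ugt1a8 none.

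Sult1d1, which sulfates catecholamines and related monoamines, was the most abundant member and held 86.9% of the summed mean FPKM of the SULT genes. It lies in the chromosome 5 cluster (87554645 to 87569027, minus strand), 130 kb from Ugt2b38. It had 282 and 119 FPKM in WT and 315 and 224 in KO. WT pool 2 was the lowest and the groups overlapped, with a log2 fold change of 0.54 (SE 0.46, interval -0.68 to 1.76, limma adjusted p = 0.854) and -0.08 without WT pool 2. Sult1b1, 16.4 kb away, had 1.23 to 2.34 FPKM and again its lowest value in WT pool 2.

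Sult1c2, a phenol sulfotransferase on chromosome 17 (53829637 to 53846339, minus strand), had the smallest SE of the members named. It had 27.3 and 26.1 FPKM in WT and 18.2 and 16.1 in KO. The gap between the groups exceeded the spread within either, and the means were 26.7 ± 0.801 in WT and 17.2 ± 1.48 in KO (SD, n = 2). The log2 fold change was -0.63 (SE 0.12, interval -0.94 to -0.31, limma adjusted p = 0.650) and stayed between -0.71 and -0.54 with any pool left out. Its 4 tested neighbours within 500 kb had log2 fold changes from -0.10 to 0.36. Sult1c1, next to it, had no read.

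Sult1a1, the main phenol sulfotransferase, had 10.7 and 5.17 FPKM in WT and 12.8 and 9.24 in KO, with overlap (log2 fold change 0.52, SE 0.37). Sult2b1, which sulfates cholesterol, had 0.378 and 0.559 FPKM in WT and 0.711 and 0.811 in KO, without overlap, from 24 to 52 reads. Sult5a1 had 0.526 to 0.859 FPKM. Sult4a1, known from brain, was under the filter, with 27 and 21 reads in WT and 13 and 2 in KO. Sult1e1, the estrogen sulfotransferase, had 0 to 6 reads, Sult2a3 2 to 6, Sult6b1 1 to 9 and Sult6b2 at most 3.

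No read was found for 15 members, 5 UGT and 10 SULT genes. Among them were Sult3a1, Sult3a2 and the 7 other Sult2a genes, which sulfate steroids and bile acids in liver. A count of 0 allows up to 3 reads, which for these 15 genes is 0.0531 to 0.252 FPKM over the full gene length, for counting error only. Exons of other genes cover 98.8% of Ugt2a1, 94.5% of Ugt2a2 and 59.2% of Ugt1a8. How reads there were assigned is not given in the sources used here, so the limit may not hold for these genes. The 5 hepatocyte markers summed to 33.1 and 20.8 FPKM in WT and to 45.0 and 16.1 in KO, mostly Serpina1a (7.08 to 27.9) and Fgb (3.12 to 11.0), while Alb had 0.408 to 0.868.

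**Figure D3:**
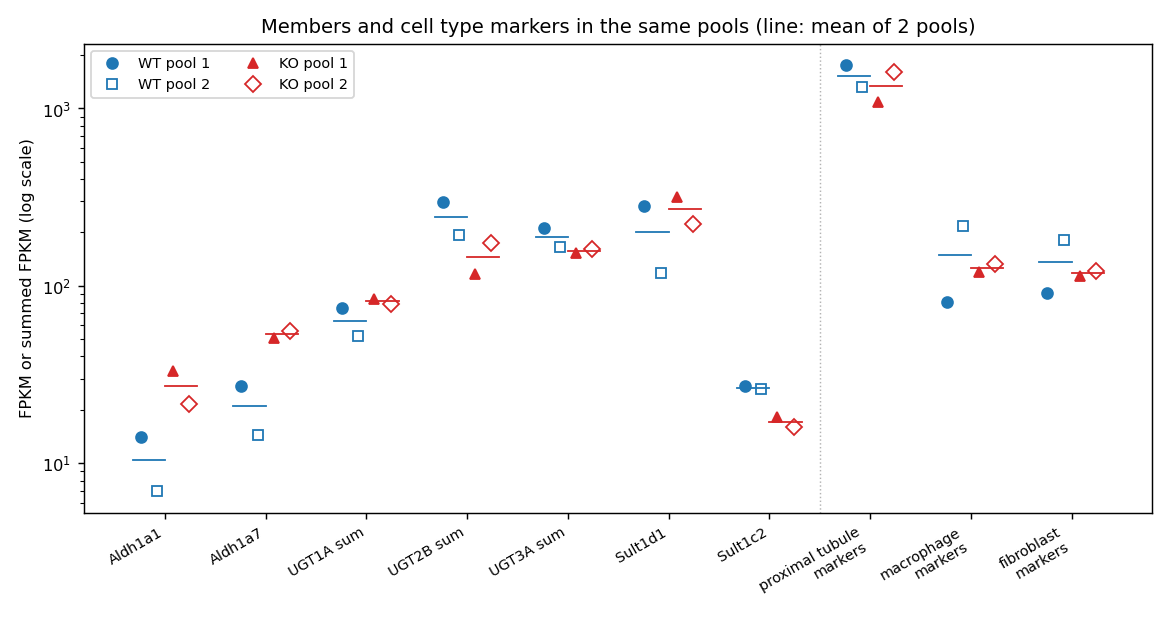
FPKM of 4 members, summed FPKM of the UGT1A, UGT2B and UGT3A genes and, right of the dotted line, of cell type markers in each pool (log axis); each symbol is 1 pool and lines are means of 2 pools. The UGT2B sum and Sult1c2 are lower in both KO pools, and macrophage and fibroblast markers are highest in WT pool 2, at 217 and 182 FPKM.

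Of the 9 tested genes of cofactor supply and conjugate transport, none had an unadjusted limma p under 0.05, beside 6.32% of all tested genes. Without overlap of the pools, 1 (11.1%) was higher in KO, beside 19.7%, and 1 lower, beside 18.1%, and the median log2 fold change was -0.01. Bpnt1, which clears the by-product of sulfation, had 95.9 and 78.6 FPKM in WT and 71.2 and 96.0 in KO. Papss2, which makes PAPS, had 71.2 and 52.1 FPKM in WT and 53.9 and 74.2 in KO, with overlap in both genes. Ugdh, which makes UDP-glucuronic acid, was the gene above the WT range, with 15.8 and 15.1 FPKM in WT and 18.5 and 27.2 in KO (log2 fold change 0.52, SE 0.21, limma adjusted p = 0.785). It was singled out after its values were seen. The 4 genes found of the conjugate hydrolase list, which remove glucuronic acid or sulfate or mature such enzymes, all overlapped. Arsb had 12.7 to 20.5 and Sumf1 16.3 to 17.6 FPKM.

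Of the 12 tested genes in a list of 14 regulators of such genes, both KO pools lay above both WT pools in 6 (50%), beside 19.7% of all tested genes, and below them in 2 (16.7%), beside 18.1%. The median log2 fold change was 0.18. Ppara, the fatty acid receptor, was the 1 gene of the list (8.33%) with an unadjusted limma p under 0.05, beside 6.32% of all tested genes. It had 19.0 and 14.8 FPKM in WT and 31.9 and 29.1 in KO (log2 fold change 0.84, SE 0.16, limma adjusted p = 0.650). Hnf4a, a regulator of proximal tubule genes, had 154 and 136 FPKM in WT and 154 and 144 in KO, and the bile acid receptor Nr1h4 68.3, 42.4, 69.2 and 57.1 in WT pools 1 and 2 and KO pools 1 and 2. Both overlapped between groups.

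**Figure D4:**
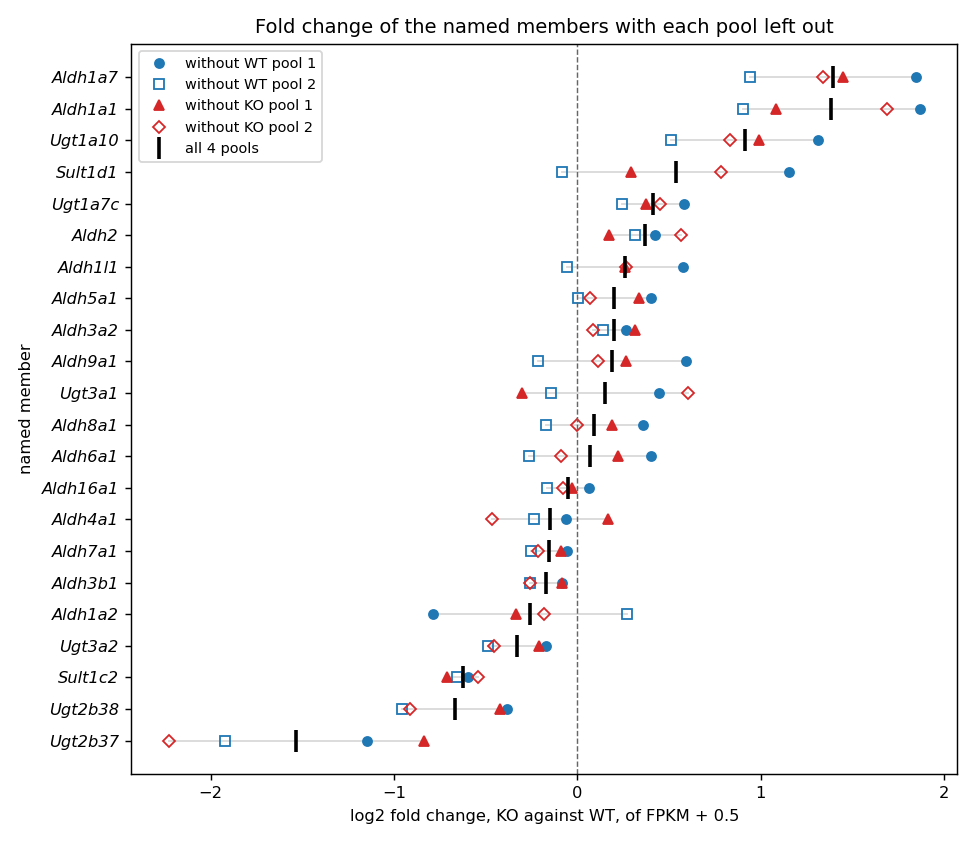
Log2 fold change of KO against WT for the 22 named members with all 4 pools (black bar) and with each pool left out (symbols). Aldh1a7, Aldh1a1 and Ugt1a10 stay above 0 and Sult1c2, Ugt2b38 and Ugt2b37 below 0 in every fit, while Sult1d1 and Aldh9a1 pass 0 without WT pool 2.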

How the data were processed

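Poly-A selected RNA of 4 kidney pools (2 WT, 2 KO) was sequenced by a company. FPKM per gene and pool were deposited by the authors in 1 table. The submitters' processing notes name HISAT2 2.0.5, mm10 and GRCm38.p6; the counting tool and annotation are not given in the sources used here. Of the table's genes shared with GENCODE M21, 97.1% had identical coordinates. The protocol describes no step that marks strand.

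FPKM times gene length gave whole reads for 100% of nonzero values, within 0.01 of a read, and these served as depth. For genes with a mean of at least 0.5 FPKM, limma 3.58.1 (R 4.3.3) was fitted to log2(FPKM + 0.5) by lmFit and eBayes with trend, two-sided, with Benjamini-Hochberg adjustment over 15414 genes. The threshold was an adjusted p under 0.05 with any fold change. The fit was tested on simulated data. The labels call the pools biological replicates. Tables were handled in Python 3.11.15 with pandas 2.3.3.

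Members with a mean of at least 10 FPKM, an unadjusted p under 0.05 or a place among the 3 largest changes in each direction are given in every pool; from the companion lists (cofactors and transport, hydrolases, retinoids, alcohol dehydrogenases, regulators), the 2 most abundant genes and any with such a p. Members and lists were chosen with earlier results of these data known. As alternatives, the pseudocount was set to 0.1 or 1, the filter was dropped or raised to 1 FPKM, values were quantile normalized, the trend was dropped, the replicate number was added as a block, voom weights were taken from the recovered reads, genes were limited to protein-coding ones, and each pool was left out. Bpnt2 (its older symbol Impad1 was found) and Sts matched no row. Some regulators and the promoter motifs are not reported here.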

Additional observations from a re-analysis of the deposited data

How the results depend on the processing

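With 2 pools per group no gene passed, the deleted Apela included, and low members rest on few reads. The fit called 0 genes under all 13 alternatives, with 687 to 1720 genes at an unadjusted limma p under 0.05; voom weights on the recovered reads also called 0. Members at an unadjusted p under 0.05 numbered 8 with voom weights and 2 to 12 with a pool left out (2 without KO pool 1, 12 without WT pool 1), against 5. The share with voom weights was 23.5%, beside 6.29% of all tested genes, Aldh1l2, Ugt1a7c and Ugt2b38 entering. With quantile normalization such members numbered 7 (20.6%, beside 6.33%), Ugt2b38 and Ugt3a2 entering. Without the filter such members numbered 4 (8.33%, beside 5.64%), Aldh3b3 entering and Ugt1a10 and Ugt2b37 missing that p. Without the trend they numbered 6 (17.6%, beside 6.23%), Aldh1l2 entering. Aldh1a1 missed that p without WT pool 2 and without KO pool 1. Ugt1a10 did so without WT pool 2 and without either KO pool, and Ugt2b37 without WT pool 1 and without KO pool 1. Aldh1a7 and Sult1c2 were among them in every one of these fits. Members without overlap numbered 20 with no filter and 17 to 28 with a pool left out, against 13. As shares of the tested members these were 41.7% with no filter, beside 32.2% of all genes, and 82.4%, 79.4%, 50% and 64.7% without WT pool 1, WT pool 2, KO pool 1 and KO pool 2, beside 73.7%, 66.3%, 67.7% and 67.3%. A lone pool was assumed to vary like the other group. The replicate block left 4 members at such a p (11.8%, beside 6.05% of all genes), without Ugt2b37. Same-numbered pools deviated with a correlation of -0.00166 over all tested genes, which shows no common pairing but cannot exclude one in single genes. With the block, the SE of single members moved either way. It was 0.15 against 0.39 for Aldh1a1 and 0.32 against 0.28 for Ugt2b38. Aldh6a1 turned to -0.028 with quantile normalization. With a pool left out, log2 fold changes ran from -0.17 to 0.061 for Aldh16a1, -0.78 to 0.27 for Aldh1a2, -0.054 to 0.58 for Aldh1l1, -0.27 to 0.40 for Aldh6a1, -0.17 to 0.36 for Aldh8a1, -0.22 to 0.59 for Aldh9a1, -0.083 to 1.16 for Sult1d1, -0.30 to 0.60 for Ugt3a1 and -0.47 to 0.17 for Aldh4a1. The other 13 of 22 named members kept their direction in every fit. The superfamily medians ran from -0.17 to 0.26 (ALDH), -0.43 to 0.29 (UGT) and -0.16 to 0.36 (SULT), each lowest without WT pool 2. The cause was not tested.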
